A study of Mus musculus with 8 samples.

Results

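Immediate early genes are transcribed within minutes of a stimulus, because the transcription factors that read them are already present in the resting cell. Growth factors, serum lipids acting on G-protein-coupled receptors, and mechanical or handling stress all reach them, largely through the ERK pathway. Many of their products are themselves transcription factors. FOS and JUN proteins pair through leucine zippers to form AP-1, EGR proteins are zinc finger activators, and NR4A1 is an orphan nuclear receptor. The 10 genes described here are Fos, Fosb, Fosl1, Fosl2, Jun, Junb, Egr1, Egr2, Ier2 and Nr4a1. They were chosen by name, with earlier results of these data known, and all 10 were found among the 45777 genes of the deposited table.

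The cells were mouse neural stem cells of the subventricular zone (SVZ-NSCs), which line the lateral ventricle. The 8 samples were S1PR1-deficient cells (genotype label S1pr1 deletion) and control cells (genotype label WT), each given ApoM-HDL or ApoM+HDL, with 2 samples of each kind. S1PR1 is a receptor for sphingosine-1-phosphate, and apolipoprotein M carries that lipid on high-density lipoprotein (HDL). The sources used here do not give the animals' age, the way S1pr1 was deleted, or the dose and time of treatment. Whether replicates are separate cultures or animals is not labelled, so each p-value measures only the spread between these libraries, which may be technical.

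The table names its libraries by code: GH1, GH2, GV1, GV2, CH1, CH2, CV1 and CV2. C was read as control because the control titles begin with that letter, and G as S1PR1-deficient by elimination. H and V are 2 conditions to which no lipoprotein preparation could be matched, so they are given as letters. S1pr1 itself did not separate the genotypes. It had 23.2 and 21.2 CPM (counts scaled to a common library total) in the GH libraries, 22.2 and 22.4 CPM in the GV libraries, 25.4 and 23.2 CPM in the CH libraries, and 20.7 and 16.0 CPM in the CV libraries. The G libraries lay inside the range of the C libraries, with a G over C log2 fold change of 0.08 (standard error 0.08, edgeR quasi-likelihood test with Benjamini-Hochberg adjustment, adjusted p = 0.569). Within the C codes S1pr1 was higher under H than under V (log2 0.40, adjusted p = 0.0433). The targeted gene therefore gives no check of the reading of C and G, and whether its counts fall in the deleted part is not given. Every direction below holds for the codes as labelled in the table.

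Totals were between 39619305 and 45698186 counts a library. Of the stem cell markers, Nes was at 631.3 CPM or more and Sox2 at 97.4 CPM or more in every library, whereas the counts of Gfap were between 0 and 38. Of 6 microglial markers, Aif1, Csf1r and C1qa were at 0 in all libraries and the sum of the list was at most 0.286 CPM in the G libraries and 0.300 CPM in the C libraries. The 4 endothelial markers summed to at most 1.87 CPM in the G libraries and 2.15 CPM in the C libraries.

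**Figure D1:**
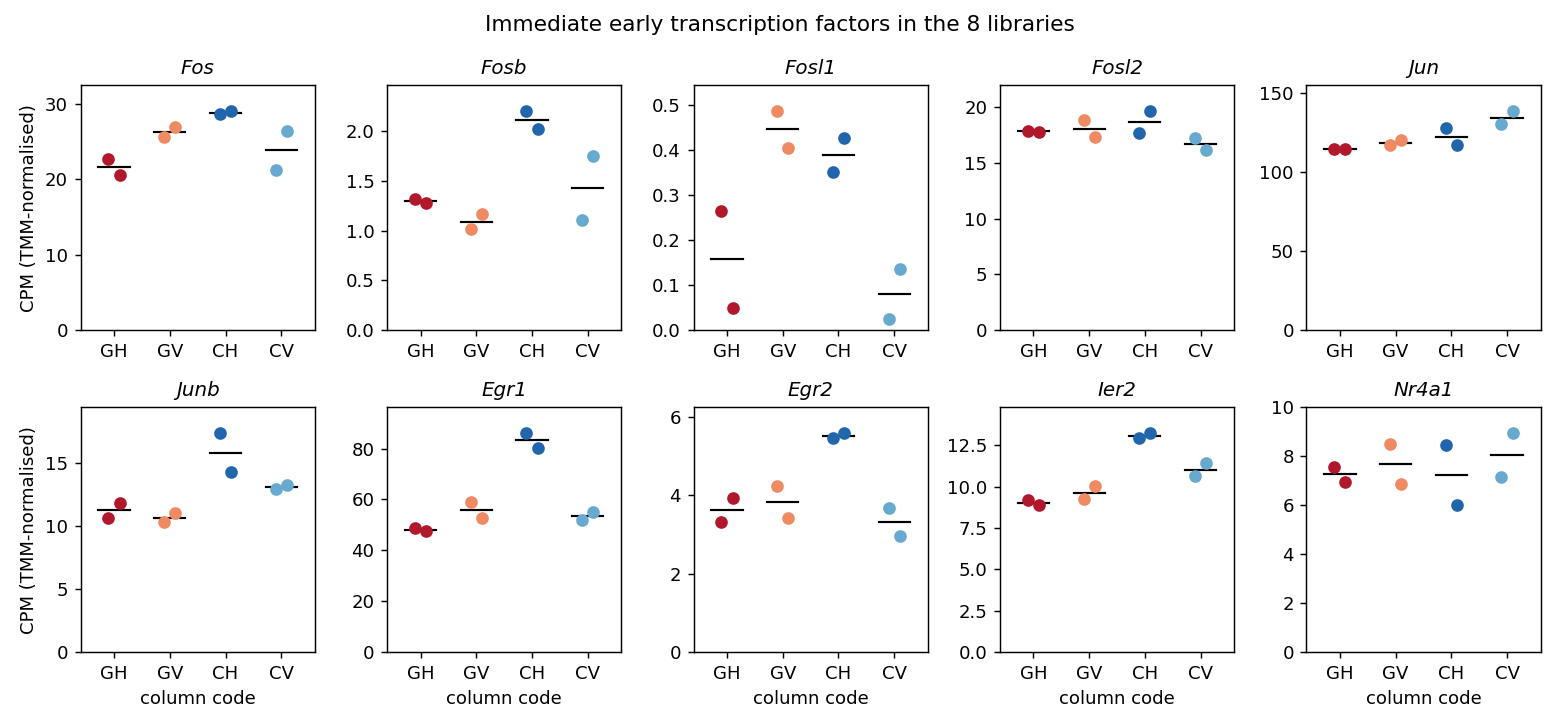
Level of each of the 10 genes in every library, in TMM-normalised CPM (linear axes from 0), by column code; points are libraries and bars are the means of 2. In the panels of Fos, Fosb, Junb, Egr1, Egr2 and Ier2 both CH libraries lie above all 6 others.

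Egr1, a zinc finger factor induced by ERK signalling through serum response factor, passed the threshold, an adjusted p under 0.05, in 4 of 6 comparisons. It had 48.8 and 47.5 CPM in the GH libraries and 59.1 and 52.7 CPM in the GV libraries. It had 86.0 and 80.3 CPM in the CH libraries and 51.9 and 55.1 CPM in the CV libraries. The CH libraries stood above all others, the GH libraries below all others, and the GV and CV libraries overlapped. Within the C codes Egr1 was 1.55-fold higher under H than under V (log2 fold change 0.64, 95% interval 0.47 to 0.80, edgeR quasi-likelihood test with Benjamini-Hochberg adjustment, adjusted p = 0.000802). Within the G codes the H over V log2 fold change was -0.22 (interval -0.38 to -0.05, adjusted p = 0.198). The difference between these 2 effects was -0.85 on the log2 scale (interval -1.08 to -0.62, adjusted p = 0.00304). Egr1 is on chromosome 18, at 34861207 to 34864956 of GRCm38.

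Egr2, also known as Krox20 and a relative of Egr1 best known for its part in hindbrain patterning and myelination, was likewise highest in the CH libraries. Its levels were 3.33 and 3.93 CPM in the GH libraries and 4.24 and 3.43 CPM in the GV libraries. They were 5.46 and 5.59 CPM in the CH libraries and 3.68 and 2.96 CPM in the CV libraries. Both CH libraries were higher than the other 6, which overlapped. Egr2 rose 1.67-fold under H in the C codes (log2 0.74, interval 0.32 to 1.15, adjusted p = 0.0303). Its log2 fold change in the G codes was -0.08 (interval -0.50 to 0.33, adjusted p = 0.906). The difference between the effects, at -0.82, did not pass the threshold of 0.05 (adjusted p = 0.0843). The rise in the C codes did not pass without CH1, CH2, CV1 or CV2, each left out in turn, with adjusted p up to 0.202.

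These were the 2 of 10 genes that passed for H over V in the C codes, both higher, where 10.7% of the 17644 genes tested passed in either direction, 5.68% as higher and 4.99% as lower. The median log2 fold change of the 10 was 0.27, against -0.01 over all genes tested. In the G codes 0 of the 10 passed with edgeR, where 1.28% of all genes (226) passed, 1.14% as higher and 0.136% as lower. With DESeq2 0 of the 10 passed, where 668 genes passed. There, with edgeR, 2 of the 10 (Fos and Egr1) had an unadjusted p under 0.05, both with a negative log2 fold change. Over all genes that was so for 2607 of 17644, in either direction. The median of the 10 was -0.08 against 0.00 over all genes.

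Promoter sequences from RefSeq (GRCm38.p6) are shown for Egr2, Fos and Junb, which each passed a test and hold at least 1 of the motifs searched. Jun also passed a test and has an entry, but its window held 0 matches to these motifs and is not printed. Each runs 5′ to 3′ on the gene's strand and covers 250 bases before to 50 after an annotated start. Capitals mark 5 motifs searched on both strands: the CArG box bound by serum response factor, TGACG as the core of the cAMP response element, the AP-1 site TGANTCA, the EGR site GCGNGGGCG, and TATAAA. Of the 10 genes, 7 had a promoter entry, and Egr1, Ier2 and Fosl1 had none. Egr2 has several annotated starts, and the window shown is one with the most matches.
Egr2, chr10:67537619-67537918, plus strand: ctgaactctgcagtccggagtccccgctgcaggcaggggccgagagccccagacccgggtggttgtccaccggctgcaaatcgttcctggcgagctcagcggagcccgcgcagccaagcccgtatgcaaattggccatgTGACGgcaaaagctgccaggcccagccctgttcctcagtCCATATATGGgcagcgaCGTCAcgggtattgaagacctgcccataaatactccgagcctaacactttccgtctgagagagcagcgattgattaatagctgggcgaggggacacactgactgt
Fos, chr12:85473640-85473939, plus strand: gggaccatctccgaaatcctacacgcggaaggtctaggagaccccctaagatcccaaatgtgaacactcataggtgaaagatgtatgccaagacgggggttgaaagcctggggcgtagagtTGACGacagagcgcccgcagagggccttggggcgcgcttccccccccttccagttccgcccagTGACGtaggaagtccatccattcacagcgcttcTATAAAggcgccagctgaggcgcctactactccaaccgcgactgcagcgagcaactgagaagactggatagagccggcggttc
Junb, chr8:84978699-84978998, minus strand: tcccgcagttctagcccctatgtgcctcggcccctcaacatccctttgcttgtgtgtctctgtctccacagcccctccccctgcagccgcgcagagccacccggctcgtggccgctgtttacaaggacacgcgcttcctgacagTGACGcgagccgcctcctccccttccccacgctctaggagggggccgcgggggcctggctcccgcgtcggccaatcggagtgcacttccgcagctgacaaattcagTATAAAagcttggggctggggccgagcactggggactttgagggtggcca
In the Egr2 window a CArG box begins 72 bases before the start, between a TGACG 111 bases before it on the gene's strand and another on the opposite strand 55 bases before it. A CArG box is present in the promoters of 1.81% of the 27025 genes with an entry, and among the 7 it was found in Egr2 alone. Egr1, Ier2 and Fosl1, without an entry, were not searched, nor were bases outside the windows. Fos has TGACG 129 and 66 bases before its start and TATAAA 33 bases before it. TGACG was found in 5 of the 7 (Fos, Fosb, Junb, Egr2 and Nr4a1), against 23.0% of all genes. TATAAA was found in Fos and Junb, against 15.7% of all genes, and in Junb it begins at the annotated start itself. The EGR site was found in Fosb, Fosl2 and Nr4a1, against 6.27% of all genes, and the AP-1 site TGANTCA in 0 of the 7, against 8.97%. The Jun window holds TGACATCA, a longer form that this pattern does not match. A match describes the letters of these windows and is not evidence of binding in these cells.

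**Figure D2:**
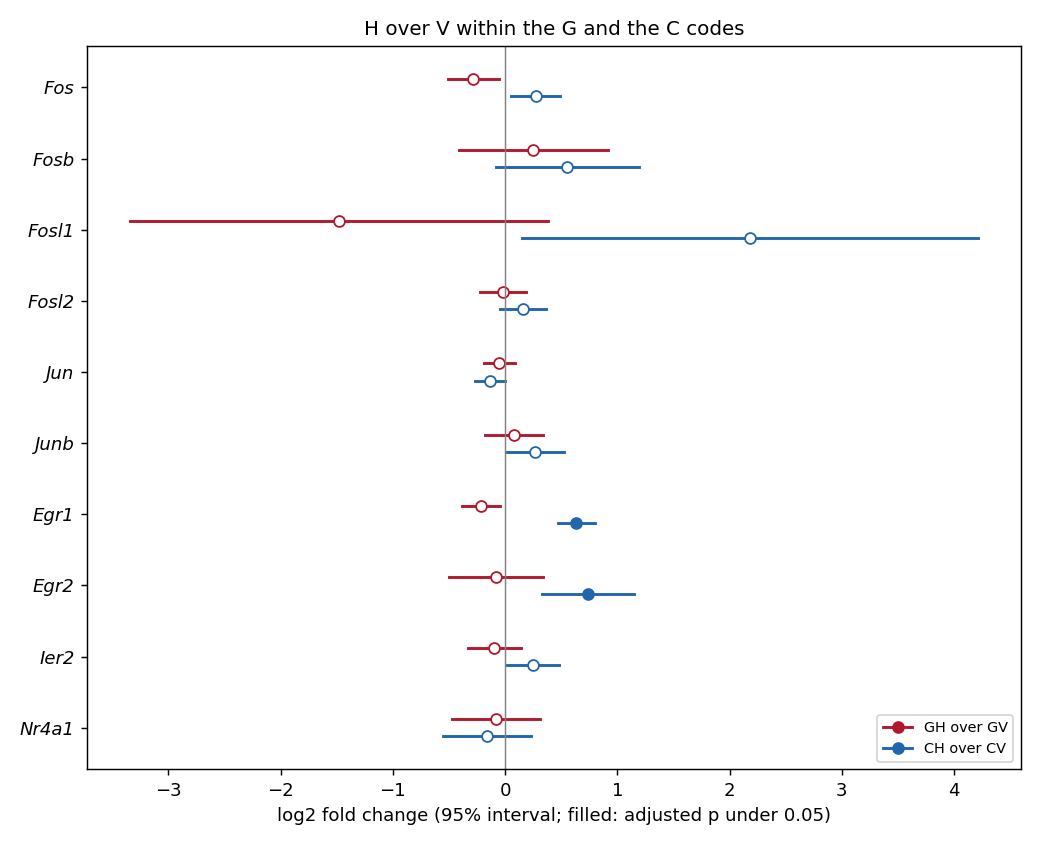
Log2 fold change of H over V for the 10 genes within the G codes (red) and within the C codes (blue), with 95% intervals from the edgeR fit; filled points have an adjusted p under 0.05. Egr1 and Egr2 are filled in the C codes, at 0.64 and 0.74, and no gene is filled in the G codes.

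Fos encodes the best known partner of JUN in AP-1, and its transcript is short-lived. Fos had 22.7 and 20.6 CPM in the GH libraries, 25.7 and 27.0 CPM in the GV libraries, 28.7 and 29.1 CPM in the CH libraries, and 21.3 and 26.4 CPM in the CV libraries. H libraries lay below V libraries in the G codes and above them in the C codes, without overlap in either, and both CH libraries were above the other 6. The effect of H passed in neither, with log2 fold changes of -0.28 in the G codes (adjusted p = 0.215) and 0.27 in the C codes (adjusted p = 0.112). The difference between the 2 effects did pass, at -0.55 on the log2 scale (interval -0.87 to -0.24, adjusted p = 0.0401). That call for Fos rests on all 8 libraries, since it was lost whichever library was left out, with adjusted p up to 0.166.

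Fos and Egr1 were the 2 of 10 that passed this test of the difference between effects, both lower, where 7.35% of all genes passed in either direction, 3.93% as higher and 3.41% as lower. The median of the 10 was -0.32, against 0.02 over all genes. The comparison of CH with CV, that of GH with CH and this difference share the CH libraries, so their values for a gene are not independent of each other.

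Ier2 encodes a small nuclear protein induced by serum and growth factors. It had 9.17 and 8.86 CPM in the GH libraries, 9.24 and 10.02 CPM in the GV libraries, 12.9 and 13.2 CPM in the CH libraries, and 10.6 and 11.4 CPM in the CV libraries. All 4 G libraries lay below all 4 C libraries. Ier2 fell in GH relative to CH (log2 fold change -0.54, interval -0.77 to -0.30, adjusted p = 0.0295). It also fell over both conditions together (log2 -0.36, interval -0.53 to -0.20, adjusted p = 0.00685). Under V alone the G over C log2 fold change was -0.19 and did not pass (interval -0.43 to 0.04, adjusted p = 0.227). The fall under H alone did not pass without GH1, GH2, CH1 or CH2, each left out in turn, with adjusted p up to 0.221.

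Junb, an AP-1 subunit that activates more weakly than JUN and can oppose it, differed between G and C in the same direction under H and V. It had 10.7 and 11.8 CPM in the GH libraries, 10.3 and 11.02 CPM in the GV libraries, 17.3 and 14.3 CPM in the CH libraries, and 12.9 and 13.3 CPM in the CV libraries. The G libraries were below the C libraries without overlap, and both CH libraries were above the other 6. Junb fell in G over both conditions (log2 -0.39, interval -0.58 to -0.21, adjusted p = 0.00709). Taken singly, the log2 fold changes were -0.49 under H (adjusted p = 0.0591) and -0.30 under V (adjusted p = 0.0859).

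Jun, the central AP-1 subunit, had a smaller difference. It had 114.4 CPM in both GH libraries, 117.2 and 120.2 CPM in the GV libraries, 128.0 and 117.1 CPM in the CH libraries, and 130.3 and 138.6 CPM in the CV libraries. CH2 lay within the range of the G libraries, and the other 3 C libraries lay above it. The fall of Jun over both conditions was 0.91-fold (log2 -0.14, interval -0.24 to -0.04, adjusted p = 0.0455). It passed in 2 of 12 alternatives, and the adjusted p reached 0.175. Leaving out any library other than CH2 ended the call, as did DESeq2 size factors and the omission of the filter on low counts.

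Egr1 fell in GH relative to CH (log2 -0.79, interval -0.95 to -0.62, adjusted p = 0.000207), whereas its log2 fold change in GV relative to CV was 0.06 (interval -0.10 to 0.23, adjusted p = 0.5998). Over both conditions it fell by 0.36 on the log2 scale (interval of the fold change -0.48 to -0.25, adjusted p = 0.00115). For Egr2 the G over C log2 fold change was -0.61 under H (adjusted p = 0.147) and 0.21 under V (adjusted p = 0.475). For Fos it was -0.42 under H (adjusted p = 0.0659) and 0.14 under V (adjusted p = 0.373). The value of Fos under H passed in 5 of 13 alternatives, DESeq2 and the fit of the 4 libraries alone among them.

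In counts, 2 of 10 genes (Egr1 and Ier2) passed under H, both lower, where 1.81% of all genes passed, 0.759% as higher and 1.05% as lower. Under V, 0 of 10 passed with edgeR, where 25.0% of all genes passed, 11.6% as higher and 13.4% as lower. With DESeq2 0 of 10 passed, where 4402 genes passed. There, with edgeR, 3 of the 10 (Fosl1, Jun and Junb) had an unadjusted p under 0.05, against 6460 of all 17644 genes tested. Over both conditions 4 of 10 passed (Jun, Junb, Egr1 and Ier2), all lower, where 19.2% of all genes passed, 9.03% as higher and 10.2% as lower. The medians of the 10 were -0.51 under H, 0.00 under V and -0.17 over both, against 0.00, -0.02 and -0.01 over all genes.

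**Figure D3:**
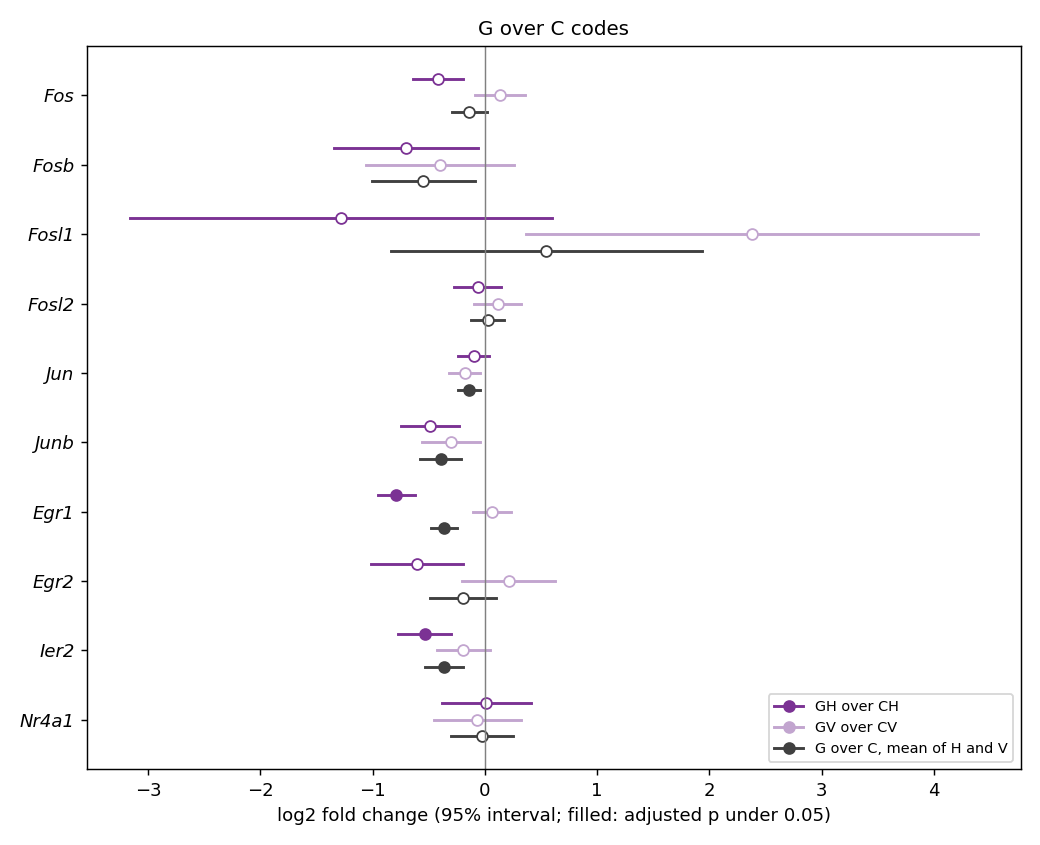
Log2 fold change of G over C for the 10 genes under H (purple), under V (light purple) and over both (dark grey), with 95% intervals; filled points have an adjusted p under 0.05. Egr1 and Ier2 are filled under H, at -0.79 and -0.54; Jun, Junb, Egr1 and Ier2 are filled over both; none is filled under V.

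The remaining 4 genes passed no comparison. Fosb, a FOS relative whose truncated form accumulates in stimulated neurons, had 1.32 and 1.28 CPM in the GH libraries, 1.01 and 1.17 CPM in the GV libraries, 2.202 and 2.02 CPM in the CH libraries, and 1.11 and 1.75 CPM in the CV libraries. Both CH libraries were the highest for Fosb, but its G over C log2 fold change over both conditions, -0.55, had an interval of -1.01 to -0.09 and an adjusted p of 0.0910. Without CV1 that value of Fosb passed, with an adjusted p of 0.0416. Fosl1, which encodes FRA1, was near the limit of detection, with 11 and 2 counts in the GH libraries, 22 and 17 in the GV libraries, 14 and 19 in the CH libraries, and 1 and 6 in the CV libraries. Its intervals spanned several log2 units, as from 0.15 to 4.21 for CH over CV (adjusted p = 0.162). Fosl2, which encodes FRA2, lay between 17.3 and 18.8 CPM in the G libraries and between 16.1 and 19.6 CPM in the C libraries. Nr4a1 lay between 6.88 and 8.47 CPM in the G libraries and between 5.99 and 8.93 CPM in the C libraries. For Fosl2 and Nr4a1 the G over C intervals over both conditions were -0.12 to 0.17 and -0.30 to 0.25.

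Other immediate early genes were taken from lists chosen by known function. Earlier results of these data were known when the lists were chosen, so their counts are not an independent test. Of 27 other immediate early and feedback genes, 11 passed for H over V in the C codes, all higher, with a list median of 0.14, where 5.68% of all genes passed as higher. The 4 with the largest changes were Ptgs2, Ccn1, Ccn2 and Sgk1. Ptgs2, the inducible cyclooxygenase, had 1.25 and 0.901 CPM in the GH libraries, 2.32 and 1.88 CPM in the GV libraries, 2.63 and 3.16 CPM in the CH libraries, and 0.540 and 0.592 CPM in the CV libraries. It rose in CH over CV by a log2 fold change of 2.35 (standard error 0.30, adjusted p = 0.00112). Ccn1, a secreted matrix protein and target of YAP and serum response factor, had 11.95 and 11.89 CPM in the GH libraries, 8.54 and 9.79 CPM in the GV libraries, 20.1 and 21.2 CPM in the CH libraries, and 6.71 and 9.43 CPM in the CV libraries. Its log2 fold change in CH over CV was 1.35 (standard error 0.14, adjusted p = 0.00038). Ccn2, its relative, rose by 1.13 on that scale and Sgk1, a serum-induced kinase, by 0.83. The count of 11 was 7 without CH2, 7 without CV1 and 6 without CV2.

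In the G codes 0 of these 27 genes passed for H over V with edgeR and 0 with DESeq2, which called 668 genes. The list median was -0.03. With edgeR 4 of the 27 had an unadjusted p under 0.05, against 2607 of all 17644 genes. With 1.28% of all genes passing there, a count of 0 sets none of these lists apart from other genes. The difference between the effects passed for 9 of 27, of which 8 were lower and 1 (Ier3) was higher, where 7.35% of all genes passed. Among them were Ptgs2 at -3.31 (adjusted p = 0.00302), Ccn2 at -1.21 (adjusted p = 0.0221), Ccn1 at -0.97 (adjusted p = 0.0190) and Sgk1 at -0.79 (adjusted p = 0.00717). Under H, 5 of 27 fell in G relative to C (Arc, Ccn1, Ccn2, Ptgs2 and Sgk1) and 0 rose, where 1.81% of all genes passed. Under V, 6 of 27 rose in G and 3 fell, where 25.0% of all genes passed, 11.6% as higher and 13.4% as lower. Ptgs2 rose under V by 1.88 on the log2 scale, opposite to its log2 fold change of -1.43 under H. The count of 9 for the difference was 5 without CH2, 3 without CV2, and 2 without GH1 or GH2. The count of 5 under H was 1 without CH1, 0 without CH2, GH1 or GH2, and 3 without CV1 or CV2.

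Of 17 other immediate early transcription factors, 3 passed for H over V in the C codes, near the share of 10.7% over all genes. Klf10, a TGF-beta-inducible factor, rose by 0.47 on the log2 scale (adjusted p = 0.000904), and Myc and Jund fell, with log2 fold changes of -0.46 and -0.31. In the G codes 0 of 17 passed with edgeR, where 1.28% of all genes passed, and 0 with DESeq2, where 668 genes passed. With edgeR 2 of the 17 had an unadjusted p under 0.05, against 2607 of all 17644 genes. Klf10 and Myc also passed for the difference between effects, at -0.46 and 0.55. Under H, 2 of 17 passed for G over C (Klf10 and Srf), both lower, where 1.81% of all genes passed, 1.05% as lower. Under V, 4 of 17 passed, 2 higher and 2 lower, near the share of 25.0% over all genes. For G over C over both conditions, 3 of 17 passed, 1 higher and 2 lower, near the share of 19.2% over all genes. Among the lower was Srf, the factor that binds the CArG box, with a log2 fold change of -0.47 (standard error 0.06, adjusted p = 0.000514). Srf had 23.6 and 24.8 CPM in the GH libraries, 20.8 and 23.7 CPM in the GV libraries, 33.4 and 31.5 CPM in the CH libraries, and 31.9 and 32.0 CPM in the CV libraries. The G libraries of Srf were all below the C libraries, and its H over V log2 fold change in the C codes was 0.02 (adjusted p = 0.907).

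Of 13 listed AP-1 and EGR targets, 10 were tested. In the C codes, where 5.68% of all genes passed as higher, 3 rose under H: Timp1, a metalloproteinase inhibitor (log2 0.93), the cytokine Lif (log2 0.83) and the hyaluronan receptor Cd44 (log2 0.40). In the G codes 0 of the 10 targets passed with edgeR, where 1.28% of all genes passed, and 0 with DESeq2, where 668 genes passed. With edgeR 1 of the 10 targets had an unadjusted p under 0.05, against 2607 of all 17644 genes. Cd44 passed for the difference between effects at -0.57 (adjusted p = 0.0110). The count of 3 targets in the C codes was 1 without CH1 and 0 without CH2 or CV2, and Cd44's call for the difference was lost without CV2, GH1 or GH2. Of 20 upstream factors and AP-1 partners, 19 were tested, and 3 passed in the C codes, near the share of 10.7% over all genes. Map2k1, which encodes the kinase MEK1, rose under H by 0.34 on the log2 scale. Mapk3, which encodes ERK1, and Mrtfa, a coactivator of serum response factor, fell, with log2 fold changes of -0.34 and -0.47.

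**Figure D4:**
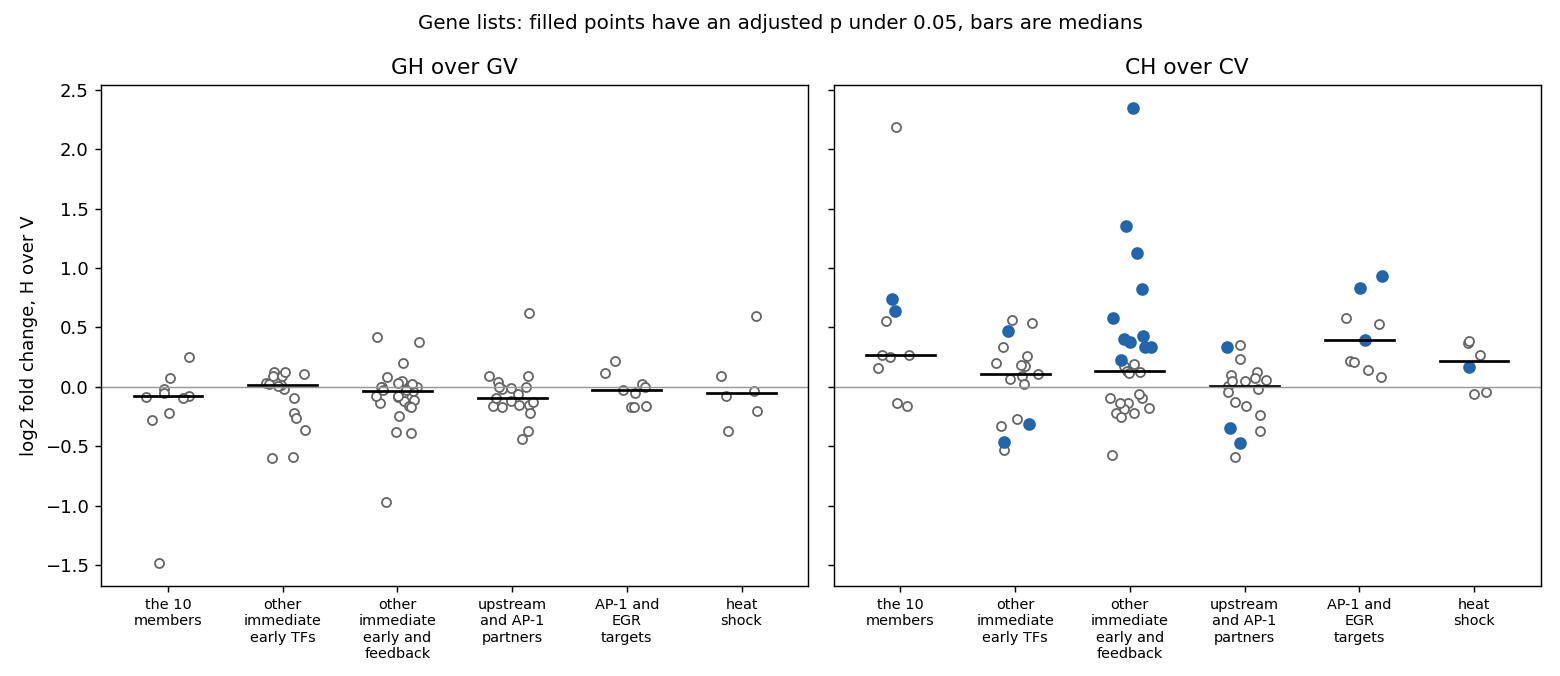
Log2 fold change of H over V for the tested genes of 6 lists that had counts in every code, within the G codes (left) and the C codes (right); filled points have an adjusted p under 0.05 and bars are medians of the genes drawn. Filled points occur in the C panel alone, 11 of them among the other immediate early and feedback genes.

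Other measures moved with the codes that set these genes apart. The 3 neuronal markers (Rbfox3, Snap25 and Syt1) summed to between 22.0 and 26.0 CPM in the GH libraries, 27.8 and 31.1 CPM in the GV libraries, 14.5 and 15.2 CPM in the CH libraries, and 22.7 and 25.0 CPM in the CV libraries. All 3 fell in CH relative to CV, and Snap25 and Syt1 rose in G relative to C. The 4 neuroblast markers (Dcx, Dlx1, Dlx2 and Tubb3) went the other way in G relative to C, and 1 of them passed, as lower. Their sums were between 13.6 and 15.1 CPM in the G libraries and between 17.2 and 19.5 CPM in the C libraries. Most of that sum was Tubb3, at 10.7 to 12.7 CPM in the G libraries and 13.6 to 16.7 CPM in the C libraries. The 10 neural stem cell markers summed to between 5505 and 5910 CPM in the G libraries and between 6249 and 6326 CPM in the C libraries, and of the 10, 1 rose and 2 fell in G relative to C. The 6 heat shock genes, which encode chaperones, summed to between 3333 and 3710 CPM in the G libraries and between 3796 and 4247 CPM in the C libraries. Nearly all of that sum was the constitutive Hspa8, at 3201 to 3585 CPM in the G libraries and 3653 to 4111 CPM in the C libraries. The inducible Hspa1a and Hspa1b were between 1.08 and 1.85 CPM in the G libraries and between 1.03 and 1.90 CPM in the C libraries. Hspa8 passed for H over V in the C codes (log2 0.16, adjusted p = 0.0491) and for G over C (log2 -0.17, adjusted p = 0.00569). The part of these differences in the immediate early genes was not tested. In bulk libraries fewer cells of a type and less RNA per cell cannot be told apart.

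The 10 genes did not vary alike among themselves. Against the mean of their standardised log2 CPM over the 8 libraries, Pearson's r was 0.975 for Egr1, 0.895 for Ier2, 0.855 for Fos and 0.830 for Fosb. It was 0.299 for Jun, 0.275 for Fosl2 and 0.119 for Nr4a1. Each gene is part of that mean, and the libraries come in 4 pairs of one code, so these values describe the libraries only. Outside the 10, the genes most like the mean were Ankrd50, Actr8, Nt5dc3, D17H6S56E-5 and Ift52, with r between 0.95 and 0.97. Ankrd50, the first of them, had 85.2 and 79.5 CPM in the GH libraries, 86.7 and 82.0 CPM in the GV libraries, 105.4 and 101.0 CPM in the CH libraries, and 85.4 and 88.9 CPM in the CV libraries.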

How the data were processed

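Per the labels' protocols, stranded libraries were made from total RNA depleted of ribosomal RNA. Tools named in the submitters' processing notes are HISAT2 2.1.0, StringTie 2.1.3b, Trimmomatic and bcl2fastq 2.20.0, with builds GRCm38 and mm10. The authors deposited raw read counts per gene, per the file headers. Whether counting used strand is not given in the sources used here. The 16 FPKM and TPM columns were not used, so levels are not compared between genes.

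Columns were placed in a genotype by the first letter of their code (C by the titles, G by elimination), without a match to single samples. The members and lists were chosen with earlier results of these data known. Genes were filtered with filterByExpr (minimum count 10), which all 10 members passed, Fosl1 through its higher libraries. One edgeR 4.0.16 fit (R 4.3.3, TMM, quasi-likelihood) with a coefficient per code gave every contrast. Adjusted p-values are Benjamini-Hochberg values over 17644 genes, with a threshold of 0.05. Standard errors are the absolute log2 fold change over the root of F, and CPM are TMM-normalised. Replicates of each code differed by more than counting noise. The fit was also run on simulated counts, with the same spread in every gene. Changes of a fixed size were set only in genes with more counts than Fosl1. That run does not cover smaller changes or genes of few counts. Alternatives were DESeq2 1.42.0, its size factors in edgeR, no filter, a replicate block, each library left out, and the compared codes alone. Named from each list were up to 4 genes past the threshold with the largest change. The 5 genes most like the members were taken by Pearson's r.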

Additional observations from a re-analysis of the deposited data

Results flagged for a closer look

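For 2 genes the effect of H over V differed between the G and the C codes by a test of the difference itself. Egr1 had a difference of -0.85 on the log2 scale (edgeR quasi-likelihood test, adjusted p = 0.00304). Its own effects were -0.22 in the G codes and 0.64 in the C codes. Over the 12 alternatives the adjusted p for Egr1 was between 4.25e-10 and 0.0331. Fos had a difference of -0.55 (adjusted p = 0.0401). Its own effects were -0.28 in the G codes and 0.27 in the C codes, of which neither passed. Over the 12 alternatives the adjusted p for Fos was between 0.00977 and 0.166, and 3 of them passed.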

How the results depend on the processing

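Over single genes no called value changed sign under any alternative. Egr1 passed in every alternative for CH over CV, GH over CH, G over C and the difference between effects, and Junb and Ier2 did so for G over C over both conditions. With each library left out in turn, the count of the 10 genes that passed was 1 to 2 for CH over CV, 1 to 3 for GH over CH, 0 to 1 for GV over CV (Jun, without CH1 or CH2), 3 to 4 for G over C, and 1 for the difference between effects. It was 4 for GH over CH with DESeq2 and without the filter (Fos and Junb added). The same leave-outs gave, over all genes, 8 to 843 calls for GH over GV (226 with all libraries), 255 to 2169 for CH over CV (1883), 45 to 415 for GH over CH (320), 1950 to 4444 for GV over CV (4408), 1585 to 3391 for G over C (3387) and 56 to 1450 for the difference between effects (1296). The lowest were without GH2, CV2, GH1, CV2, GH1 and GH1 in that order. The DESeq2 test gave 668 calls for GH over GV, 567 for GH over CH and 2022 for the difference. Of these 2022, 43.4% were higher, against 53.5% with edgeR and 43.9% with DESeq2 size factors in edgeR. Without the filter there were 575 for GH over GV and 552 for GH over CH. The fit of the GH and GV libraries alone gave 31. The cause of these shifts was not tested. Same-numbered libraries did not deviate together (r between -0.05 and 0.01), so the numbers were not taken as pairs. With the replicate block the counts were 137 for GH over GV and 203 for GH over CH, and 1 of the 10 genes passed for the difference. With 2 libraries a code, small effects in genes of few counts such as Fosl1 cannot be resolved.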
